A study of Mus musculus with 12 samples.

Results

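The C/EBP transcription factors were followed in MB114 cells, a mouse line labelled as microvascular endothelial, over the first day on Matrigel, a gel of basement membrane proteins on which endothelial cells arrange into cords. The genes were chosen by name: Cebpa, Cebpb, Cebpd, Cebpg and Cebpz, with every probe set of the array whose platform gene symbol is one of them. That gave 8 of 22625 probe sets: 1 for Cebpa, 2 for Cebpb, 2 for Cebpd, 3 for Cebpg and 0 for Cebpz, so Cebpz itself was not measured here. Of the 8, 7 were bright enough to be tested, among 12614 in all.

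C/EBP proteins are basic leucine zipper (bZIP) factors that bind DNA as dimers, with themselves, with each other or with relatives such as ATF4. C/EBPα is known for arresting growth during terminal differentiation of fat, liver and granulocytes, C/EBPβ and C/EBPδ for acute-phase and inflammatory transcription and the early steps of fat cell formation, and C/EBPγ, which lacks a strong activation domain, as a dimer partner. The protein of Cebpz carries the family's name but is no bZIP factor: it is related to a nucleolar protein of ribosome assembly.

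The series asks which transcripts change while the cells form capillary-like structures. The cells had been divided into fresh cultures 24 h earlier, and total RNA was taken after 1, 5, 15 and 25 h, from 3 samples per time that the labels call biological replicates 1, 2 and 3. All 12 samples are the same line with no other treatment named, and every comparison here is between times on Matrigel. The labels do not say whether replicates came from separate cultures, so p-values measure the spread between these samples, and the number of arrays limits their precision.

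Each sample was hybridised to 1 array. The deposited MAS5 signals summarise the probes of a probe set on a linear intensity scale. The trimmed mean was 500.2 on each array, while medians ran from 153.6 to 209.2, and replicates of a time correlated at r = 0.900 to 0.955 across tested probe sets. Arrays with the same replicate number deviated together, so values with the replicate number as a block stand beside results whose call they change. The 4 arrays numbered 1 also stood apart in their controls: their spike-in signals had geometric means of 800.0 to 996, against 344 to 483 on the other 8 arrays, and the 18S rRNA 3' control read 710.3 to 2558 against 101 to 178. The part of this in the results was not tested, and values without those 4 arrays are given beside each named C/EBP probe set or gene whose call was then lost. Of 14 endothelial markers 3 passed the brightness filter (Cdh5, Flt1 and Cd34), while Pecam1 averaged a signal of 17.9, Tie1 1.89 and Vwf 1.70. Of 9 fibroblast markers 8 passed, against 59.5% of all 12393 named genes.

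Promoters are shown for the 3 genes with an entry in the RefSeq promoter table (GRCm38.p6), so that the start regions of these members can be compared. Each line gives the 250 bases upstream of the annotated start, 5′ to 3′ on the gene's strand, with matches to short motifs in capitals.
Cebpa, chr7:35119043-35119292, plus strand: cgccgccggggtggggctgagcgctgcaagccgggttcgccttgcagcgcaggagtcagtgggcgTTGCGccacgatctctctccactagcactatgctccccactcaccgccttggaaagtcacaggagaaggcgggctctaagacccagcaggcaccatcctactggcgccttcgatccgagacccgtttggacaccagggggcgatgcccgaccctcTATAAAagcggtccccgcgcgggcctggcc
Cebpb, chr2:167688665-167688914, plus strand: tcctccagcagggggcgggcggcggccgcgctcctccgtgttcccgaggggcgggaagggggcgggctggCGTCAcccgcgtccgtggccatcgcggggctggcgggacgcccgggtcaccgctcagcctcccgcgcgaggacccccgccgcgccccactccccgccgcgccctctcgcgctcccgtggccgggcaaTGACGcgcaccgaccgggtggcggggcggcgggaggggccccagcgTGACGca
Cebpg, chr7:35056567-35056816, minus strand: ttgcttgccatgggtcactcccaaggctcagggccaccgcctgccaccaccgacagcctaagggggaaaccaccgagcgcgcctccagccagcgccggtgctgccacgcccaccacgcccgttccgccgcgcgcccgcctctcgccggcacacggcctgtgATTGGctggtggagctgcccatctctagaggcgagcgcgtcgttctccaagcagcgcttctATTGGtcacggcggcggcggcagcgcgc
The capitals in Cebpa mark a TATA box, TATAAA, 30 to 25 bases upstream, and the C/EBP half-site TTGCG, 185 to 181 bases upstream. In Cebpb they mark 3 copies of TGACG, the half-site of the cAMP response element, at 180 to 176 (on the opposite strand), 53 to 49 and 7 to 3 bases upstream. In Cebpg they mark the CCAAT box on the opposite strand, written ATTGG here, at 89 to 85 and 28 to 24 bases upstream.

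All motifs were searched on both strands of these windows. Cebpb also held 5 copies of the GC box GGGCGG, left in lower case, of which a pair overlap each other and none overlaps a capital. The GC content was 66.4% for Cebpa, 81.6% for Cebpb and 70.8% for Cebpg. Among 32851 windows of the same length, 12.4% held TATAAA, 14.5% TTGCG, 17.8% TGACG, 33.8% CCAAT and 32.7% GGGCGG. The STAT site TTCNNNGAA (in 7.02% of windows) and the amino acid response element TGATGNAA (in 3.45%) were not in the 3 windows shown. A match is a description of letters, not evidence that a factor binds there.

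Cebpd rose from the first to the last time sampled. This gene encodes C/EBPδ, which is induced by inflammatory cytokines and glucocorticoids in many cells. On probe set 1423233_at its signals at 1 h were 396.8, 376.2 and 1235.6 in replicates 1, 2 and 3. At 5 h they were 1950.3, 1684.1 and 2501.7. At 15 h they were 4501.5, 4245.3 and 3831.1, and at 25 h 6782.7, 6261.8 and 4440.4. All signals at 5 h were above all at 1 h, and all at 15 h above all at 5 h, while the 15 h and 25 h samples overlapped. The third replicate had the highest signal of its time at 1 and 5 h and the lowest at 15 and 25 h. In these bulk samples, more cells of a type and more RNA per cell cannot be told apart, nor can fewer cells and less RNA per cell.

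The mean signal of Cebpd went from 669.5 ± 490.3 (SD, n = 3) at 1 h to 5828 ± 1229.8 (SD, n = 3) at 25 h. The difference of the mean log2 signals was 3.33 ± 0.37 (SE), or 10.1-fold (95% interval of the log2 change 2.53 to 4.13, limma adjusted p = 6.72e-05). Folds here and below come from such differences of mean log2 signals, not from the ratio of the mean signals printed beside them. At 15 h it stood 7.35-fold above 1 h (limma, adjusted p = 0.000534). Both rises were called in 23 of 23 alternative settings, and without the 4 arrays numbered 3 the folds were 16.9 at 25 h and 11.3 at 15 h. At 5 h the rise was already 3.54-fold (log2 1.83 ± 0.37 SE; limma, adjusted p = 0.0401), which ranked 27 among the log2 changes of the 12614 probe sets.

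The 5 h call of Cebpd was near the threshold. It was lost in 13 of 23 alternatives, among them 9 of the 12 fits that left out 1 array, with adjusted p up to 0.137. The adjusted p was 0.462 without the arrays numbered 1 and 0.576 without those numbered 2 (limma). The call stayed without replicate 3 of 1, 15 or 25 h. The direction was upward in each alternative, and all 3 replicate pairs rose. With the replicate number as a block the adjusted p was 0.0101.

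Between later times, Cebpd rose a further 2.84-fold from 5 to 25 h (limma, adjusted p = 0.00953; lost without the arrays numbered 1 or numbered 2, with adjusted p up to 0.119). From 5 to 15 h the ratio was 2.07 (limma, adjusted p = 0.0846; 0.0381 with the replicate block and 0.00998 without 1 h replicate 3). From 15 to 25 h the log2 difference was 0.46 (95% interval -0.34 to 1.25; limma, adjusted p = 0.922), so a further change in that interval was not detectable with these arrays.

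The other Cebpd probe set, 1456605_at, was dim and passed the filter on 4 arrays, all at 15 or 25 h, so that it entered the test only through the times at which it was high. Its values at 15 and 25 h against earlier times are therefore a description and support no call. Its signals were 138.2, 60.1 and 89.1 at 1 h and 182.2, 116.3 and 86.4 at 5 h. They were 285.8, 210.7 and 121.4 at 15 h and 451.7, 276.7 and 98.3 at 25 h. Replicates 1 and 2 increased from each time to the next, while replicate 3 stayed between 86.4 and 121.4, so that the groups overlapped. The log2 difference between 25 and 1 h was 1.35 ± 0.54 SE, and 1.97 without 25 h replicate 3. The 2 Cebpd probe sets correlated at r = 0.65 over the 12 arrays, and the change with time of the difference between them had an exact permutation p of 0.0582 (adjusted p = 0.105 over 9 pairs). That permutation does not use the replicate number. The adjusted p was 0.0399 with an offset of the 25th percentile added before the log2 and 0.0425 without 1 h replicate 3 (exact permutation), and the difference was larger at 25 h than at 1 h in 3 of 3 replicates. Since 1456605_at entered only through its late arrays, these values are a description too and support no call of unequal change.

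**Figure D1:**
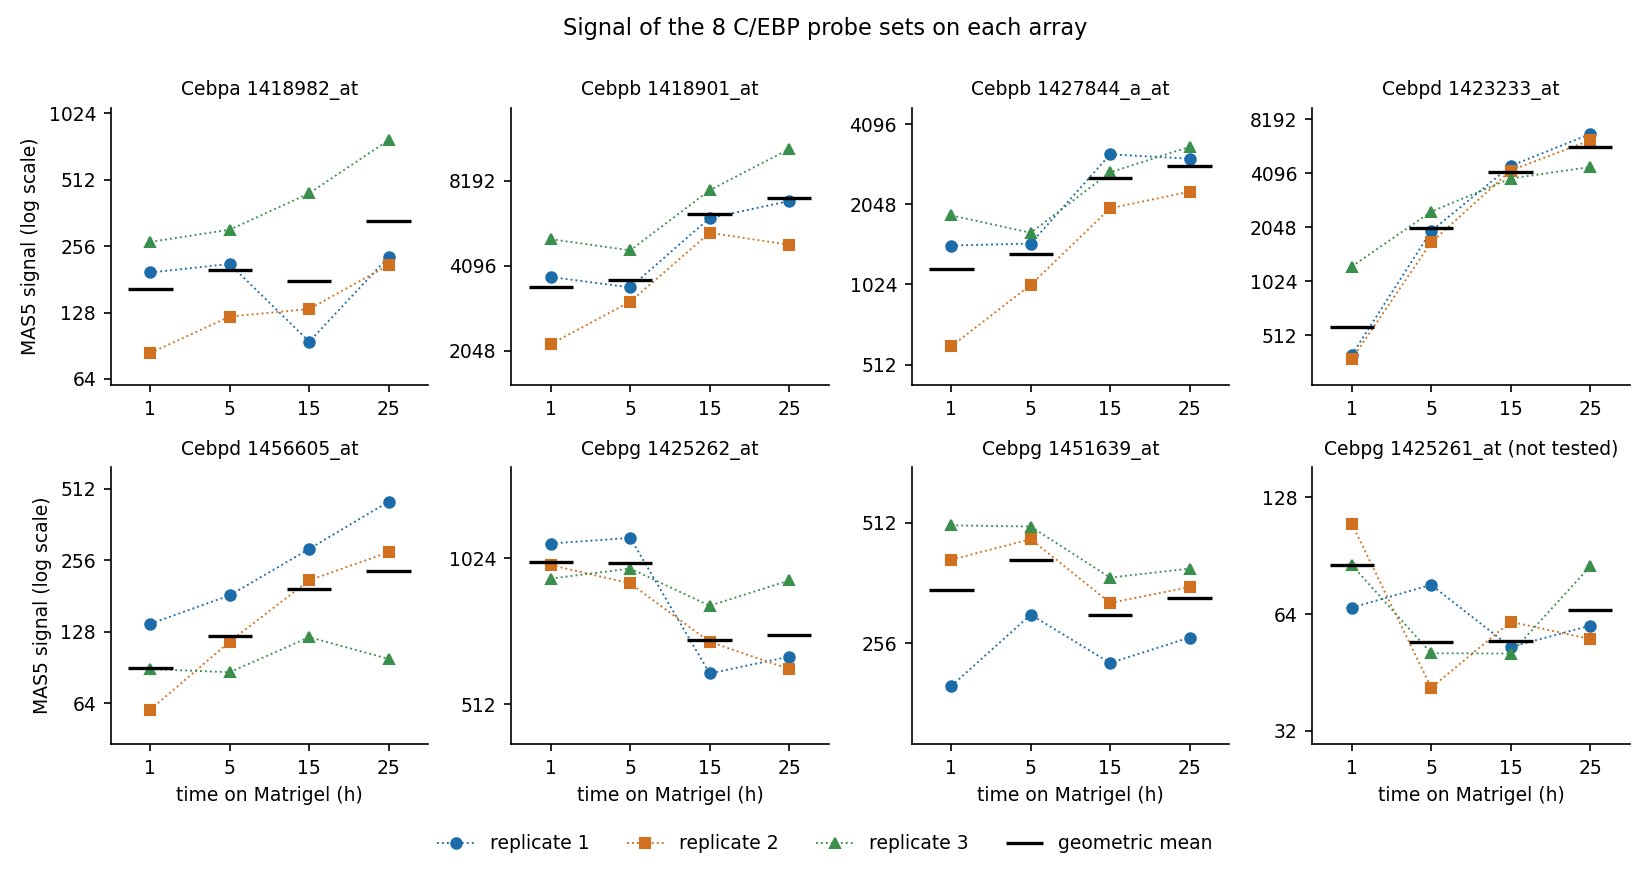
MAS5 signal (log scale, a separate range for each panel) of the 8 C/EBP probe sets against time on Matrigel in h, with the 4 times drawn as equally spaced categories. Points are single arrays, dotted lines join arrays with the same replicate number, and black bars are geometric means of 3 arrays. Cebpd 1423233_at climbs from 376.2 to 1235.6 at 1 h to 4440.4 to 6782.7 at 25 h, both Cebpb panels step up between 5 and 15 h, and Cebpg 1425262_at is lower at 15 h than at 5 h in every replicate.

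Cebpb was higher at 25 h than at 1 h on both of its probe sets, by 2.06-fold and 2.44-fold, and showed no detectable change at 5 h. C/EBPβ is made in an activating and a shorter inhibiting form from the same messenger, which array signals do not separate. On probe set 1418901_at the signals were 3731.6, 2160.4 and 5082.3 at 1 h and 3429.9, 3050.6 and 4639.8 at 5 h. They were 6039.5, 5356.6 and 7580.6 at 15 h and 6937.8, 4855.9 and 10603.7 at 25 h. Every 15 h signal was above every signal at 1 and 5 h, but at 25 h replicate 2 lay within the 1 h range. The third replicate was the highest and the second the lowest at 4 of 4 times.

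For 1418901_at the rise from 1 to 25 h was 1.04 ± 0.33 (SE) on the log2 scale, or 2.06-fold (limma, adjusted p = 0.0280), and from 5 to 25 h it was 1.95-fold (limma, adjusted p = 0.0448). The difference of 0.86 between 15 and 1 h did not pass (limma, adjusted p = 0.0841), nor did that of 0.78 between 15 and 5 h (adjusted p = 0.139). With the replicate block both were called (adjusted p = 0.00102 and 0.0028), and all 3 replicate pairs were higher at 15 h. Without 1 h replicate 3 the first was called without a block too (adjusted p = 0.0392). At 5 h the log2 difference from 1 h was 0.08 (95% interval -0.63 to 0.79).

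On probe set 1427844_a_at, whose suffix marks probes shared by transcripts of the same gene, Cebpb read 1433.2, 599.8 and 1859.1 at 1 h and 1458.2, 1020.7 and 1600.7 at 5 h. It read 3152.5, 1978.4 and 2698.5 at 15 h and 3038.2, 2282.5 and 3365.4 at 25 h. The 15 and 25 h samples lay wholly above those of 1 and 5 h. The rise at 25 h was 2.44-fold over 1 h (log2 1.29 ± 0.36 SE; limma, adjusted p = 0.0151) and 2.14-fold over 5 h (adjusted p = 0.0371), and at 15 h it was 2.19-fold over 1 h (adjusted p = 0.0428). The 15 against 5 h difference of 0.94 was called with the replicate block (adjusted p = 0.00515) and not without it (adjusted p = 0.107), except when 1 h replicate 2 was left out (adjusted p = 0.0324). The 2 Cebpb probe sets followed each other at r = 0.94 over the 12 arrays, and no unequal change was detected between them (exact permutation p = 0.587).

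The Cebpb calls were sensitive to single arrays. For 25 against 1 h, the call of 1418901_at was lost in 7 of 23 alternatives, including median centring of the arrays and those without replicate 1 or 2 of 1 h or replicate 1 or 3 of 25 h, with adjusted p up to 0.118 among fits without 1 array and 0.150 without the arrays numbered 1. The call of 1427844_a_at was lost in 2 of 22, without 25 h replicate 3 (limma, adjusted p = 0.0511) and without the arrays numbered 1 (adjusted p = 0.0971). The 15 against 1 h call of 1427844_a_at was lost in 13 of 22, including those without replicate 1 or 2 of 1 h, replicate 1 of 5 h, replicate 1 or 3 of 15 h and replicate 1 or 2 of 25 h (adjusted p up to 0.134), and it was 0.216 without the arrays numbered 1. The 25 against 5 h calls were lost in 13 of 23 alternatives for 1418901_at and in 8 of 22 for 1427844_a_at; the fits without 5 h replicate 1 or 2 and 25 h replicate 1 or 3 lost both, and those without 1 h replicate 1 and 15 h replicate 1 or 2 lost the first. Without the arrays numbered 1 the adjusted p was 0.236 and 0.181 (limma). The direction was upward in each of these settings.

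Cebpa showed no change that passed the test, and its spread between replicates was wide. Its signals on 1418982_at were 194.4, 83.9 and 267.5 at 1 h and 212.5, 122.7 and 303.9 at 5 h. They were 94.4, 132.7 and 444.1 at 15 h and 228.4, 209.9 and 773.9 at 25 h. The third replicate was the highest at 4 of 4 times, and all groups overlapped. The log2 difference between 25 and 1 h was 1.03 (95% interval -0.37 to 2.43; limma, adjusted p = 0.25), an interval that holds 0 as well as the rise of Cebpb. With the replicate block it was called (adjusted p = 0.0218), and all 3 replicate pairs were higher at 25 h, although the F test over the 4 times was not (adjusted p = 0.0661 with the block, 0.559 without).

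With all 12 arrays and neither a replicate block nor centring of the arrays, no difference of Cebpg between times passed the test. C/EBPγ pairs with ATF4 on genes of amino acid supply and redox balance. On 1425262_at the signals were 1098.4, 991.3 and 929.8 at 1 h and 1128.1, 908.8 and 975.2 at 5 h. They were 592.5, 688.6 and 817.2 at 15 h and 641.7, 605.1 and 921.5 at 25 h. All 15 h signals lay below all signals of 1 and 5 h, and the 25 h signals lay below those of 1 h but overlapped those of 5 h. The log2 differences from 1 h were -0.53 ± 0.20 SE at 15 h and -0.50 ± 0.20 SE at 25 h (limma, adjusted p = 0.0780 and 0.0714). With the replicate block both were called (adjusted p = 0.0362 and 0.0370), as were those from 5 h (0.0454 and 0.0423). Without 25 h replicate 3, 15 and 25 h against 1 h and 25 against 5 h were called also without a block, and median centring of the arrays gave calls for 25 h against 1 and 5 h.

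Probe set 1451639_at of Cebpg read 199.8, 414.2 and 505.0 at 1 h. Its 5 h signals were 301.6, 466.3 and 501.5. It read 228.2, 322.7 and 373.5 at 15 h and 264.3, 353.7 and 393.5 at 25 h. The replicates kept 1 order at 4 of 4 times, with the first lowest and the third highest, and the times overlapped. Its log2 difference from 1 h was 0.25 at 5 h (95% interval -0.48 to 0.99; limma, adjusted p = 0.850), and at 25 h it was -0.06 (95% interval -0.80 to 0.67; limma, adjusted p = 0.912). The third Cebpg probe set, 1425261_at, stayed between 41.3 and 109.5, below the brightness threshold of 183.1 on all 12 arrays, and was not tested. In a fit of all probe sets without the filter its F test gave an adjusted p of 0.490 with limma. The tested probe sets of Cebpg correlated at r = 0.26 over the 12 arrays, with no unequal change detected (exact permutation p = 0.847).

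**Figure D2:**
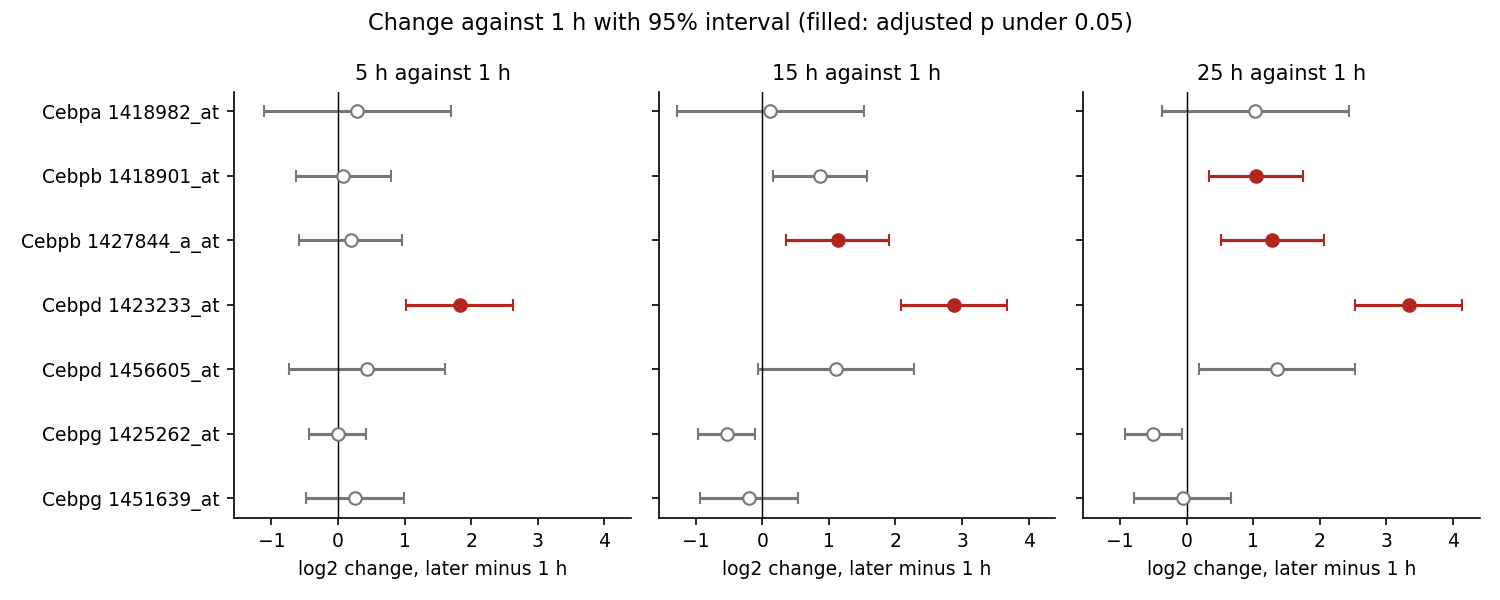
Log2 change from 1 h at 5, 15 and 25 h for the 7 tested C/EBP probe sets, with 95% intervals from limma over 12 arrays; filled points passed an adjusted p of 0.05 over all 12614 probe sets. Cebpd 1423233_at passes at each time (1.83, 2.88 and 3.33), the Cebpb probe sets pass at 25 h (1.04 and 1.29) and 1 of them at 15 h (1.13), and the other intervals belong to differences that did not pass.

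Counted over the 7 tested probe sets, 1 rose and 0 fell from 1 to 5 h, when 0.499% of all tested probe sets rose and 0.587% fell (1 called with the replicate block, against 5.26% of all). From 1 to 15 h 2 rose and 0 fell, against 11.4% and 7.51% of all (5 called with the block, against 34.7%). From 1 to 25 h 3 rose and 0 fell, against 17.3% and 14.7% of all (6 with the block, against 46.3%). From 5 to 25 h 3 rose and 0 fell, against 14.3% and 13.0% of all (5 with the block, against 42.3%). From 5 to 15 h limma called 0 either way, against 6.75% higher and 4.69% lower of all, with an unadjusted p under 0.05 for 4 of the 7 and for 28.2% of all, and the block called 4 (27.7% of all). From 15 to 25 h limma called 0, with the block too, against 0.0159% higher and 0.428% lower of all (2.94% with the block), and 0 had an unadjusted p under 0.05, against 8.03% of all. The counts with the block for 15 against 1 h, 25 against 1 h and 25 against 5 h include Cebpd 1456605_at, which passed the filter only at 15 and 25 h; without it they were 4, 5 and 4 of 6. The F test over the 4 times called 3 of 7, against 29.4% of all, and 5 with the block, against 48.8%. Those 5 also include Cebpd 1456605_at (limma F test with the block, adjusted p = 0.0173), so its part in that count supports no call either.

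The groups did not overlap for 1 of the 7 from 1 to 5 h (17.3% of all), 4 from 1 to 15 h (38.2%), 3 from 1 to 25 h (45.2%), 4 from 5 to 15 h (32.4%), 3 from 5 to 25 h (41.5%) and 0 from 15 to 25 h (13.2%). Comparisons that share the same arrays are not independent of each other. Over all tested probe sets the median log2 change from 1 to 25 h was 0.08. Medians of whole arrays were higher at the late times by 0.17 to 0.23 on the log2 scale, and centring the arrays on their medians lowers each late change by that amount.

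Whether family members changed unequally was tested on the same arrays, by the within-array log2 difference between the brightest tested probe sets of each gene pair and between probe sets of a gene. Such a difference is free of array-wide scaling, and only its change with time is read. Of 9 pairs 3 passed. Cebpd against Cebpg moved most, by 3.83 from 1 to 25 h in favour of Cebpd (exact permutation p = 0.000195, adjusted p = 0.00175). Cebpb gained 1.54 on Cebpg (exact permutation p = 0.0061, adjusted p = 0.0257), most of it between 5 and 15 h. Cebpd gained 2.29 on Cebpb (exact permutation p = 0.00857, adjusted p = 0.0257), most of it between 1 and 5 h, and all 3 arrays of each later time lay below all 3 of 1 h in that difference. The other tested probe sets of these genes were not paired across genes. Their log2 changes from 1 to 25 h were 1.35 (Cebpd 1456605_at), 1.29 (Cebpb 1427844_a_at) and -0.06 (Cebpg 1451639_at).

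The pairs with Cebpa did not pass over the 12 arrays: adjusted p was 0.105 against Cebpd, 0.293 against Cebpg and 0.382 against Cebpb (exact permutation tests). Cebpa against Cebpd passed without 15 h replicate 3 (exact permutation, adjusted p = 0.0384) and without 25 h replicate 3 (adjusted p = 0.0343). The smallest p that the 15400 divisions of the arrays allow is 6.49e-05. Without 25 h replicate 1, the number of pairs that passed was 1.

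**Figure D3:**
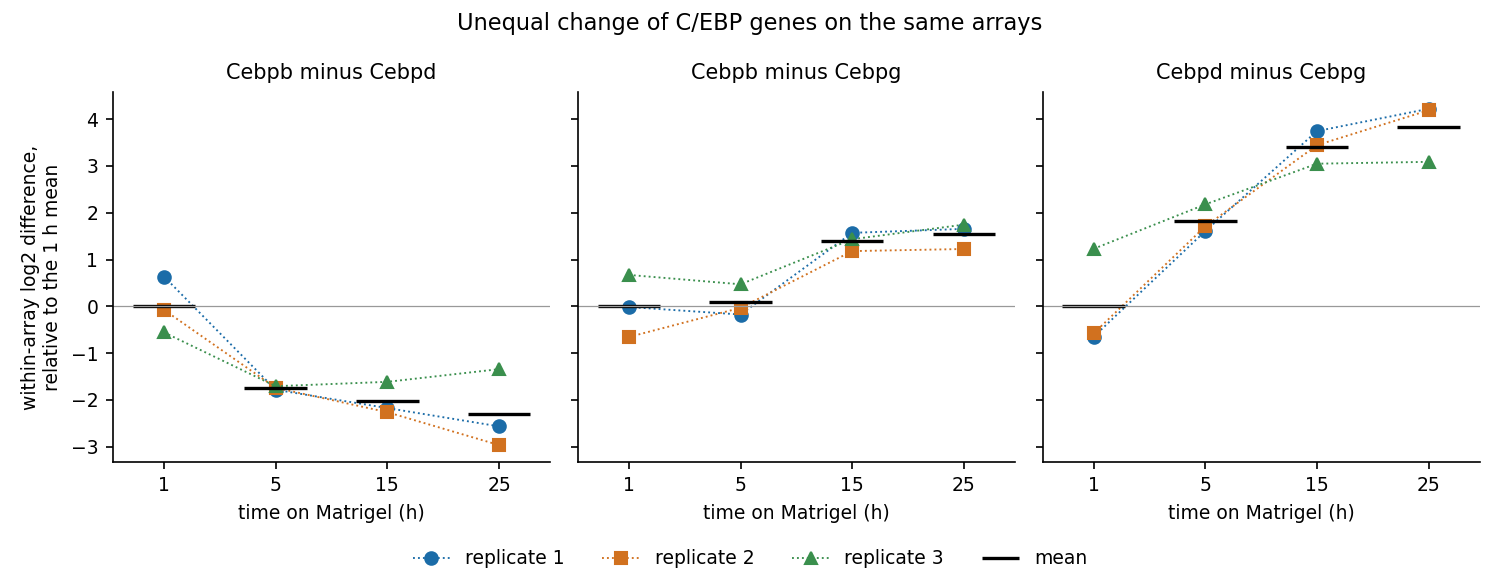
Within-array log2 difference between family members (Cebpb 1418901_at, Cebpd 1423233_at, Cebpg 1425262_at), set to 0 at the 1 h mean, against time on Matrigel in h, with the 4 times drawn as equally spaced categories; points are arrays and bars are means of 3. Cebpb loses 2.29 to Cebpd by 25 h with the step at 5 h, Cebpb gains 1.54 on Cebpg with the step at 15 h, and Cebpd gains 3.83 on Cebpg.

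Genes whose log2 signals followed a member most closely over the 12 arrays are given as a description, since arrays of a time share that time. For Cebpd 1423233_at these were Tmc6, Txnip and A4galt (r = 0.96 each). For Cebpb they were Ssbp4, Paqr7 and Prrx2 (r = 0.97, 0.97 and 0.96 with 1418901_at) and Prrx2, Paqr7 and Spns1 (r = 0.97, 0.96 and 0.96 with 1427844_a_at), so that Paqr7 and Prrx2 were named by both probe sets. Cebpa was followed by Nxn, Mt1 and Slc39a14 (r = 0.94, 0.93 and 0.92), the last 2 a metallothionein and a metal ion transporter. Cebpg 1425262_at was followed by Nudt3, Smo and Camsap1 (r = 0.95, 0.94 and 0.93) and 1451639_at by Lpgat1, Mtrr and Tmed9 (r = 0.93, 0.92 and 0.89). The dim Cebpd 1456605_at was followed by Nr4a2, Thyn1 and Plekho2 (r = 0.90, 0.90 and 0.89).

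The partners, regulators and known target genes of the family were counted in lists, for 25 against 1 h unless stated. Over all 7379 genes tested, 1510 were higher and 1057 lower (20.5% and 14.3%; median log2 change 0.13), and with the replicate block 2144 and 1495. Of the 1510 higher, 121 reached the brightness filter only with their 25 h arrays, and of the 1057 lower 32 only with their 1 h arrays, so that such genes had to differ to be counted; those in the lists are named. Of 10 bZIP relatives and partners, 2 were higher and 3 lower (median 0.26; without 1 h replicate 2, 1 lower), and of the 3 Atf3 reached the filter only with its 1 h arrays. Atf4, the partner of C/EBPγ on amino acid genes, fell 2.33-fold, from a mean signal of 5470 ± 418 to 2348 ± 172 (SD, n = 3; limma, adjusted p = 8.04e-05). Nfil3, a bZIP repressor, rose 4.52-fold (limma, adjusted p = 0.00125).

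Of 18 signals and regulators that act on C/EBP genes or proteins, 3 were higher and 4 lower (median log2 change 0.29; 7 and 4 with the replicate block, when 29.1% and 20.3% of all genes were). Socs3, a cytokine-induced inhibitor of JAK-STAT signalling, rose 7.22-fold (limma, adjusted p = 9.62e-05). Of the pseudokinases that direct C/EBPα to degradation, Trib2 rose 2.26-fold and Trib1 fell 3.49-fold (limma, adjusted p = 0.00119 and 0.00439; the latter 0.0504 without the arrays numbered 1). Higher calls numbered 5 without 5 h replicate 1, and lower calls 2 without 1 h replicate 1, 1 h replicate 2 or 25 h replicate 3. Over all alternative settings higher calls ran from 3 to 7 and lower calls from 0 to 4.

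Of 13 acute-phase and inflammatory C/EBP targets, 5 were higher and 5 lower (median log2 change 0.69). Without any 1 array of 25 h the median was below 0, down to -1.06. The brightness filter was set anew in each such fit, so the genes in that median can differ. The median of 0.69 includes Hp and Saa3, which entered only through their 25 h arrays. How much of the shift they account for was not tested. Lower calls numbered 3 without 1 h replicate 1 or 25 h replicate 3. Of the 5 higher, Hp and Saa3 reached the filter only with their 25 h arrays. Cd14, a coreceptor for lipopolysaccharide, rose 7.26-fold, from 969 ± 57.5 to 7206 ± 2083 (SD, n = 3; limma, adjusted p = 3.45e-06), while the chemokine gene Cxcl2 fell 8.39-fold (limma, adjusted p = 0.00073). The summed signal of 9 leukocyte markers, Cd14 among them, was 2389 to 5595 at 1 h and 7187 to 11052 at 25 h. Cd14 and Csf1r were the markers that passed the brightness filter, and Ptprc averaged 22.0 and Itgam 13.6. While Cd14 rose, the mean of Csf1r fell from 3144 at 1 h to 903 at 25 h. The higher sum therefore does not stand for the markers as a group. The part of other cell types was not tested.

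Of 8 genes of the fat cell programme, 3 were higher and 3 lower (median log2 change -0.41), among them Fabp4 and Egr2, which reached the filter only with their 25 h and their 1 h arrays. Scd1, a fatty acid desaturase, rose 2.93-fold and the early regulator Klf4 fell 5.12-fold (limma, adjusted p = 0.000939 and 0.0023). The 4 fat cell markers summed to 175 to 279 at 1 h and 281 to 322 at 25 h, with Adipoq at a mean of 12.2 and Fabp4 alone past the filter, on 1 array of 15 h and 2 of 25 h. Of 11 myeloid C/EBP targets 1 was bright enough to test, Csf1r, which fell 2.97-fold (limma, adjusted p = 0.0161; lost without 1 h replicate 1 or 2, without the arrays numbered 1, adjusted p = 0.154, and without those numbered 2, adjusted p = 0.175).

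Of 15 genes of amino acid supply and stress regulated by ATF4 and C/EBPγ, 1 was higher and 7 lower (median log2 change -0.61), and 0 were higher and 9 lower at 25 h than at 5 h (median -1.15), against 13.7% of all genes lower. Slc7a5, an amino acid transporter, fell 7.48-fold, from 2695 ± 492 to 367 ± 109 (SD, n = 3; limma, adjusted p = 2.66e-05). Of 22 genes of the Noc complexes and nucleolar ribosome assembly, where relatives of the Cebpz protein act, 0 were higher and 20 lower (median log2 change -1.12), and 16 were already lower at 15 h, against 7.72% of all genes. Nolc1, a nucleolar phosphoprotein, fell 4.67-fold, from 1863 ± 123 to 399 ± 32.3 (SD, n = 3; limma, adjusted p = 1.36e-05). These counts say nothing of the level of Cebpz itself.

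**Figure D4:**
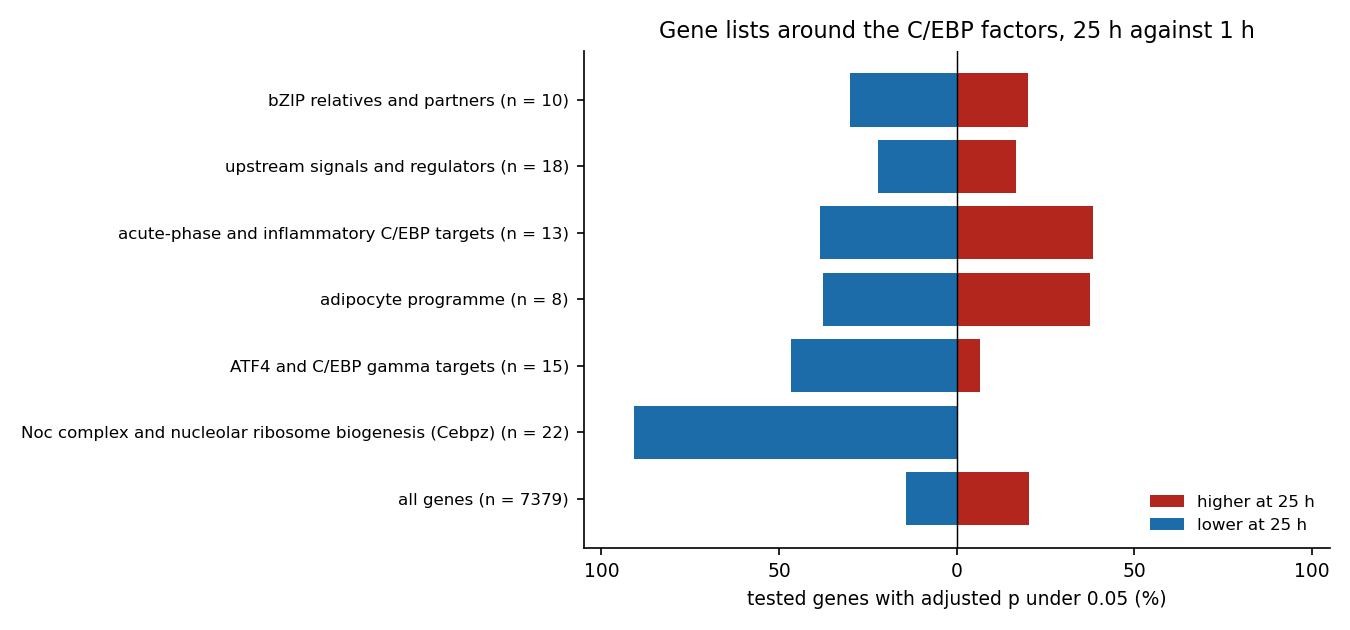
Share of tested genes (%) called higher (right) or lower (left) at 25 h than at 1 h, for 6 gene lists around the C/EBP factors with at least 5 tested genes and for all 7379 genes; n is the number of tested genes. The ribosome biogenesis list has 20 of 22 genes lower and 0 higher, the acute-phase list has 5 of 13 each way, and over all genes 1510 are higher and 1057 lower. Hp and Saa3, 2 of the 5 higher acute-phase genes, reached the brightness filter only with their 25 h arrays, as did Fabp4. Atf3 and Egr2 reached it only with their 1 h arrays.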

How the data were processed

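The submitters' processing notes name MAS5 for the deposited values, which are linear intensities; its version was not given in the sources used here. Titles gave each sample's time and number. Of 22690 probe sets, 64 controls and 1 with empty values were left out. Symbols came from GEO's platform annotation, which can be old: 20379 probe sets had 1 symbol, 691 several and 1555 none. Intensities were log2-transformed, and probe sets reaching 183.1, the median of all signals, on 3 of 12 arrays were kept (12614). In gene lists the brightest tested probe set stood for a gene.

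A model with 1 mean per time was fitted with limma 3.58.1 in R 4.3.3 (lmFit, eBayes with trend, 8 residual degrees of freedom), with 2-sided tests and Benjamini-Hochberg adjustment over the 12614; under 0.05 was called. The fit was tested on simulated data with independent noise on each array. That test does not cover the shared deviation of arrays with the same number. Pairs of members were tested by exact permutation of an F statistic, adjusted over 9 pairs. A comparison of 3 against 3 samples by permutation cannot go below p = 0.1.

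Arrays of the same number deviated together from their time means (r = 0.280 to 0.759 over 18 pairs, against -0.575 to 0.135 for different numbers), so the replicate number was also fitted as a block. Alternatives were scaling, offset, filter, trend, 1 probe set per gene, and arrays left out. With arrays left out, the brightness filter was set anew on the remaining arrays.

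Genes named were all probe sets of the members, up to 4 genes per list with the smallest F test p, and the 3 genes most correlated with each member; others are marked. The members and lists were chosen with earlier results of these data known.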

Additional observations from a re-analysis of the deposited data

How the results depend on the processing

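Over 23 alternatives, of which leaving out the 4 arrays numbered 2 or numbered 3 was chosen after seeing the data, no called C/EBP difference changed sign. Of 930 values of single C/EBP probe sets and alternatives, 807 kept direction and side of the threshold, 58 lost a call, 26 gained one, and 39 changed sign without a call on either side. List counts for 25 against 1 h moved too. Higher calls ran from 0 to 3 for bZIP relatives, 2 to 6 for acute-phase targets and 1 to 3 for fat cell genes. Lower calls ran from 1 to 3, 3 to 5 and 1 to 4. The ATF4 and C/EBPγ list had 0 to 1 higher and 7 to 10 lower, and the nucleolar list 0 higher and 14 to 20 lower.

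With the replicate block, the number of C/EBP probe sets called was 5 for 15 against 1 h, 6 for 25 against 1 h, 4 for 15 against 5 h, 5 for 25 against 5 h and 5 for the F test, against 2, 3, 0, 3 and 3 without it. Cebpd 1456605_at, which passed the filter only at 15 and 25 h, is among those called with the block, except for 15 against 5 h. Without it the block called 4, 5 and 4 of 6 for 15 against 1 h, 25 against 1 h and 25 against 5 h. The block changed neither the count for 5 against 1 h nor that for 25 against 15 h. For 5 against 1 h (1 call) the count was 0 without the filter, without trend and without the arrays numbered 1 or numbered 2. For 15 against 1 h (2 calls) it was 1 with median centring, without the filter, without trend, with 1 probe set per gene and without the arrays of any 1 number. For 25 against 1 h (3 calls) it was 1 without the arrays numbered 1 and 5 without those numbered 3, with Cebpd 1456605_at among the 5. For 15 against 5 h (0 calls) it was 1 without the arrays numbered 3. For 25 against 5 h (3 calls) it was 1 without the filter, 0 without the arrays numbered 1 and 1 without those numbered 2, and for the F test (3 calls) 1 without those numbered 1. Fits without 1 array gave 0 to 1 calls for 5 against 1 h, 1 to 3 for 15 against 1 h, 2 to 3 for 25 against 1 h, 0 to 1 for 15 against 5 h, 1 to 3 for 25 against 5 h, 0 for 25 against 15 h, 1 to 3 for the F test and 1 to 4 of 9 pairs. Without 25 h replicate 3, the counts for 25 against 1 h and 25 against 5 h also include Cebpd 1456605_at. Without 1 h replicate 3, the pairs that passed include Cebpd 1423233_at with Cebpd 1456605_at. Where fewer arrays enter a fit it also has fewer residual degrees of freedom; the cause of other lost calls was not tested. The dim probe sets Cebpd 1456605_at and Cebpg 1425261_at lie near or under the threshold of 183.1, so their changes are uncertain. Among the tested probe sets Cebpa 1418982_at had the largest SE of a log2 change (0.65, against 0.54 for Cebpd 1456605_at).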
